A study of Mus musculus with 4 samples.

Results

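The subject here is the set of 48 nuclear genes that encode subunits of the oxidative phosphorylation (OXPHOS) machinery, measured in hearts of mice lacking c-Jun in muscle. Members were found by name. Every probe set whose only gene symbol in the annotation of the array was a listed subunit was taken, which gave 98 of the 45037 probe sets tested and all 48 listed genes, out of 18193 genes with a probe set of their own. Of the 48 genes, 23 belong to complex I, 4 to complex II, 6 to complex III, 10 to complex IV and 5 to the ATP synthase. Each gene was represented by its brightest probe set, the one with the highest mean signal over the 4 arrays, and the other probe sets were kept for comparison.

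The study asked which genes of the unchallenged heart depend on c-Jun, a subunit of the AP-1 transcription factor. Hearts of 2 Jun delta mu mice and 2 Junf/f mice, all 10 weeks old and of mixed 129/Ola-C57BL/6 descent, were each hybridised to an Affymetrix mouse expression array of their own. Both genotypes carried floxed Jun alleles, and only the Jun delta mu mice also carried a Cre recombinase driven by the muscle creatine kinase promoter, which is active in heart and skeletal muscle and leaves Jun intact in the non-muscle cells of the heart. Controls were Cre-negative littermates, and the labels give no sex. The growth notes filed with the samples describe digested and cultured ventricles instead, which conflicts with the sample names, the tissue named and the methods, and whole hearts were assumed. Values are RMA signals, a background-corrected and normalized summary of the probes of a probe set on the log2 scale. A signal depends on the probes as well as on the transcript, so signals of different genes were not read as amounts of transcript, and a position in the range of the array describes the probe set only. With 2 hearts per genotype, the spread between animals is poorly known, and every p-value rests on these few hearts. The p-values of limma, the main fit, set a difference against a spread that is partly pooled over all probe sets.

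OXPHOS takes place in the inner mitochondrial membrane. Complexes I and II feed electrons from NADH and succinate into ubiquinone, complex III passes them to cytochrome c, and complex IV hands them to oxygen, while the proton gradient built on the way drives the ATP synthase. The beating heart draws most of its ATP from this route, and its muscle cells are packed with mitochondria. Most subunits are encoded in the nucleus and imported, and several complex IV subunits exist as a muscle isoform and a more widely used one.

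Promoters of the members were examined for the letters that AP-1 and 4 factors known from mitochondrial genes can bind, since AP-1 is the complex that loses c-Jun. RefSeq promoter windows on GRCm38.p6, running from 250 bases before to 50 bases after a start site, were available for 36 of the 48 genes, with 39 windows in all because 3 genes had a pair of start sites. No window was given for Atp5a1, Cox4i1, Cox6a2, Cox6c, Cyc1, Ndufa2, Ndufb9, Ndufs1, Sdhc, Uqcrb, Uqcrc2 and Uqcrq. The AP-1 letters TGANTCA occurred in 3 of the 39 member windows (7.69%), against 7.81% of the 32851 windows of all genes. The 3 are printed because they are the only member windows with an AP-1 match. They lie on the minus strands of chr2:10080461-10080760 (Atp5c1), chr6:24527477-24527776 (Ndufa5) and chr6:126849095-126849394 (Ndufa9), and capitals mark AP-1 matches, an NRF1 match in Ndufa5 and a YY1 match in Ndufa9.
Atp5c1: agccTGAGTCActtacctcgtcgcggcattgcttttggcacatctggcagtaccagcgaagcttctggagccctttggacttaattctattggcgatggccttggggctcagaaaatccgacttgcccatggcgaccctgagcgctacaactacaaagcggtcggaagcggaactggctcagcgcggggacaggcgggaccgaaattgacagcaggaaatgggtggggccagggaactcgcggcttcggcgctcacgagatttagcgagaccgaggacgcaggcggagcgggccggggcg
Ndufa5: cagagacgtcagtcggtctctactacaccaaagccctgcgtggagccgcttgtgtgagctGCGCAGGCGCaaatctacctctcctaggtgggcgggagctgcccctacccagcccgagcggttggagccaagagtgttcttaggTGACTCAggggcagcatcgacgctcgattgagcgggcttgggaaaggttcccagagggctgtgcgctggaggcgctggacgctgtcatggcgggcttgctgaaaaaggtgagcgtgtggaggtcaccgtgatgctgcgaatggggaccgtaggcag
Ndufa9: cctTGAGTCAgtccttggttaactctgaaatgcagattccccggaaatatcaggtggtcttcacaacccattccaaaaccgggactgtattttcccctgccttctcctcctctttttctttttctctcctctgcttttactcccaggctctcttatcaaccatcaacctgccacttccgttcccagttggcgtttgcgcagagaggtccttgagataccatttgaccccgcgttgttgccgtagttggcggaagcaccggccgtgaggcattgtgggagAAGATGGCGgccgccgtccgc

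With the start site as position 0, the AP-1 match of Atp5c1 began at -246, that of Ndufa5 at -106 and that of Ndufa9 at -247. Their signals differed between genotypes by -0.0015, 0.0023 and 0.028 on the log2 scale, in that order, all within the spread between hearts. Searched in the same way on both strands, the NRF1 letters, GCGCA and GCGC with any base between them, occurred in 10 of the 39 member windows (25.6%) and in 4.6% of all windows, and the YY1 letters AANATGGCG in 4 member windows (10.3%) and in 2.38% of all windows. The 10 NRF1 windows belonged to 9 genes, Atp5c1, Atp5o, Cox6a1, Ndufa5, Ndufa6, Ndufa8, Sdha, Sdhd and Uqcrc1, since both overlapping windows of Ndufa5 held the same match. The ETS/GABP letters CCGGAAGT and the ERR letters AAGGTCA were each found in 2 member windows (5.13%), against 3.89% and 4.72% of all windows. No match overlapped a match to another of the 5 motifs, and the base composition of the member windows was not compared with that of the others. A match describes letters and not a bound site.

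The Jun gene itself had the lower signal in Jun delta mu hearts. Probe set 1417409_at read 7.02 and 7.14 in Jun delta mu hearts, against 8.30 and 8.999 in Junf/f hearts, a difference of -1.57 (standard error 0.23), and 1448694_at differed by -1.24 (standard error 0.17). The array medians lay between 5.446 and 5.471. Junf/f replicate 1 stood apart, where 104 probe sets lay over 2-fold from their average on the remaining arrays and 24 to 33 did so elsewhere. Cardiac muscle markers were near the top of the range on all arrays, with signals of 12.87 to 14.82 for 9 genes and a median difference of -0.016. Markers of other cells were not level across the arrays. The atrial genes Sln, Myl7 and Myl4 were high only in Jun delta mu replicate 2 (8.11, 9.11 and 9.02, against at most 6.03 on any other array). The remaining atrial marker, Nppa, was bright on all arrays, with 12.34 and 12.79 in Jun delta mu hearts, against 11.88 and 12.40 in Junf/f hearts. The mean of 8 fibroblast markers was 10.35 and 10.51 in Jun delta mu hearts, against 10.30 and 10.13 in Junf/f hearts, with a median difference of 0.062 and the largest, 1.15, for Postn, and that of 4 endothelial markers was 9.01 and 8.93, against 9.05 and 9.15. The part of these differences in the OXPHOS values was not tested. In whole hearts, fewer cells of a type and less RNA per cell cannot be told apart.

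OXPHOS probe sets were among the brightest on the array and differed little between genotypes. All 48 genes had a mean signal within the top 10% of probe sets, 42 of them within the top 1%, which began at 12.52. The same choice of the brightest probe set placed 2840 of all 18193 genes in the top 10% and 253 in the top 1%. Of all 98 member probe sets, 81 lay in the top 10% and 63 in the top 1%. Their mean signals ran from 10.84 for Cox8a to 14.68 for Uqcrb, with a median of 13.50, where the brightest probe set of the array reached 14.86. No member passed the study's threshold, a difference above 1.3-fold (0.38 on the log2 scale) with an unadjusted p under 0.05, taken here from limma. Of all genes, 1.45% passed it (0.665% higher and 0.786% lower in Jun delta mu hearts). With p from the methods' t-test, 0 member probe sets and 0.444% of all probe sets passed. An unadjusted p under 0.05 was reached by 0 of the 48 genes in limma, against 4.56% of all genes, and by 6 of them (5.15% of all genes) in the methods' t-test. With a trended robust prior in limma it was reached by 2 of them, Ndufb2 and Cox7a1, against 4.56% of all genes, without Junf/f replicate 2 by Ndufb2, against 13.9%, and with specific probe sets only by Cox5b, represented there by a dim probe set, against 4.56%. The lowest adjusted p of any member was 0.896 (limma, Benjamini-Hochberg over all probe sets), and 0 of the 45037 probe sets were called at an adjusted p under 0.05.

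**Figure D1:**
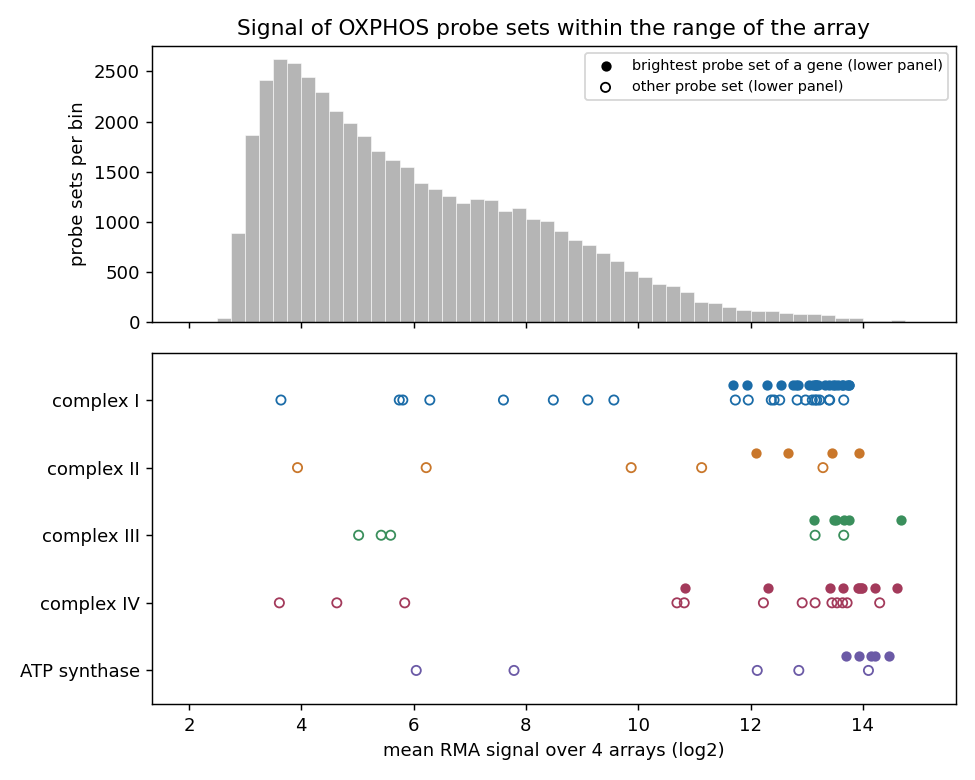
The upper panel shows how many of the 45037 probe sets fall in each bin of mean RMA signal (log2, 4 arrays), and the lower panel places the 98 OXPHOS probe sets by complex, filled for the brightest probe set of each gene and open for the others. The filled points lie between 10.84 and 14.68, while 22 of the 98 probe sets, 1 of them filled, have a mean signal under 11.

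The 6 genes that the t-test picked were Ndufa1, Ndufb3, Ndufv3, Sdha, Cox5b and Cox7a1. Their differences were small, from -0.052 for Sdha to 0.12 for Cox7a1, and each pair of replicates lay close together. None of the 6 passed the threshold, and after adjustment the lowest p of the methods' t-test was 0.908.

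The intervals of the differences were narrow on the signal scale and were set mainly by the error model. The standard error of the difference was 0.0851 to 0.11 over the 48 genes, where limma gives 0.085 to a gene whose replicates are identical, and for 44 of the 48 the error from their own replicates alone was below that value (median 0.0294). The 95% interval of the difference lay wholly inside 1.3-fold in either direction for 46 of them (95.8%), as it did for 57.3% of all genes. The exceptions were Ndufb2 and Cox8a, whose intervals reached 0.49 and 0.38. This count depends on which hearts supply the spread, since a genotype left with 1 array borrows the spread of the other. It fell steeply without either Jun delta mu heart, where the spread came from the Junf/f hearts. It fell less without Junf/f replicate 2 and hardly changed without Junf/f replicate 1. Differences were smaller at the top of the range in general, and the members reached 14.68 of a highest mean signal of 14.86. Over all probe sets with a signal under 11 the median size of the difference was 0.0877 and 1.54% passed the threshold, against 0.0467 and 0.443% in the top 1% of signal. The part of signal range in the members' values was not tested, and the intervals are limits on the signal and not on the amount of transcript.

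**Figure D2:**
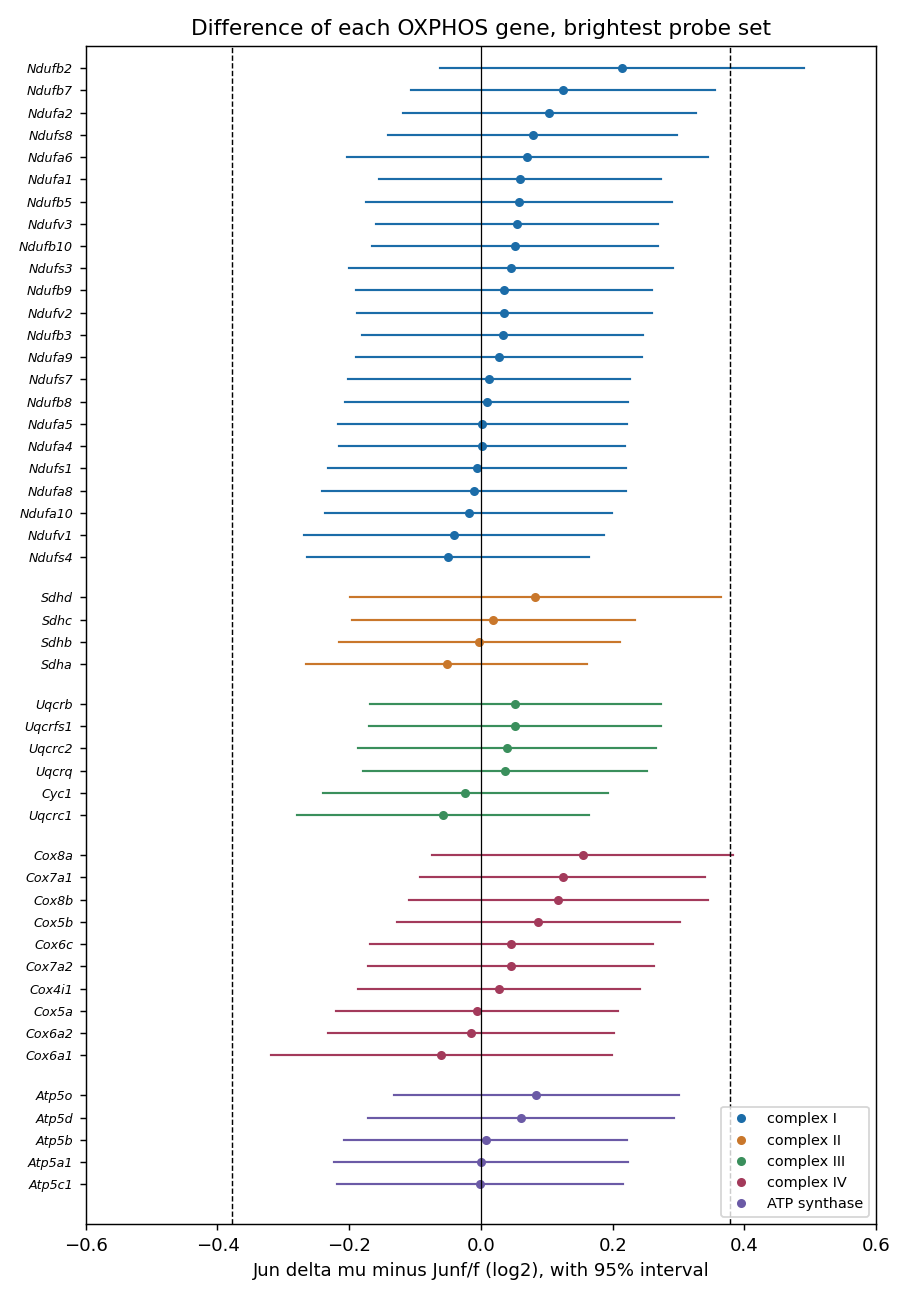
Each point is the difference of 1 OXPHOS gene, the mean RMA signal of the Jun delta mu arrays minus that of the Junf/f arrays (log2), with its 95% interval from limma, ordered by complex and by size. Dashed lines mark 1.3-fold, and only the intervals of Ndufb2 and Cox8a cross one of them.

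The differences leaned slightly to the Jun delta mu side. Their median was 0.035, against 0.0055 over all genes and 0.00075 over all probe sets, and 35 of the 48 genes (72.9%) had a difference above 0, as did 52.2% of all genes. Both Jun delta mu hearts lay above both Junf/f hearts for 18 genes (37.5%, against 17.8% of all genes), and both lay below for 3 genes, Ndufs4, Sdha and Uqcrc1 (15.9% of all genes). The mean over the 48 genes was 13.38 and 13.37 in Jun delta mu hearts, against 13.32 and 13.36 in Junf/f hearts. Junf/f replicate 1 was the lowest of the 4 arrays for 28 genes (58.3%), against 34.4% of all genes. Without that array the median was 0.011 and 29 genes were above 0, and after cyclic loess normalization the median was 0.014.

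Replicates of a genotype also differed. Single arrays stand on one side here and means of 2 arrays on the other, so the sizes are given without a comparison. The median size of the difference was 0.0452 between genotypes, 0.0283 between both Jun delta mu hearts and 0.05 between both Junf/f hearts. The largest was 0.21 between genotypes, 0.17 between the Jun delta mu hearts and 0.22 between the Junf/f hearts.

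**Figure D3:**
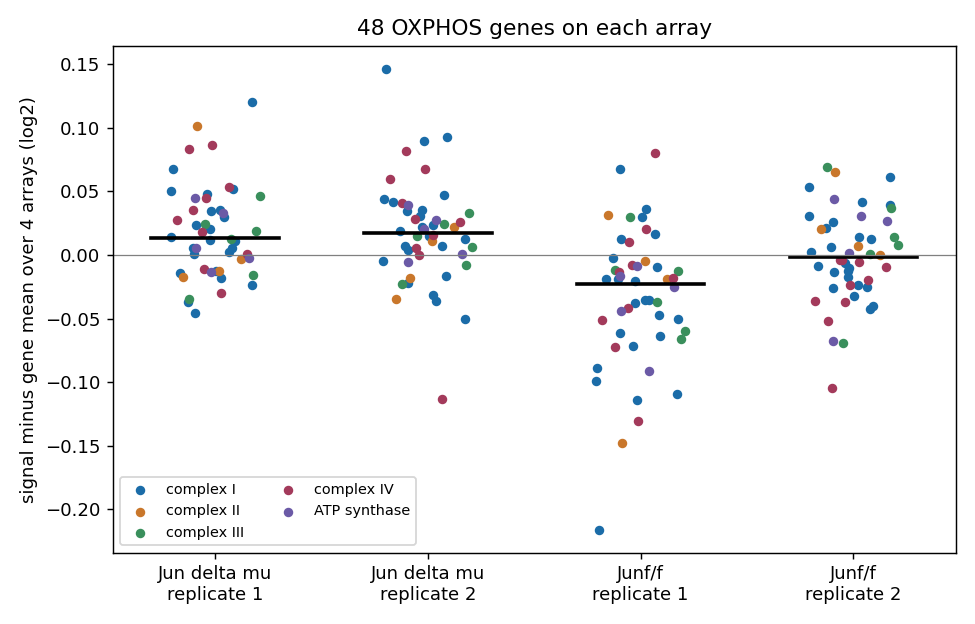
Every point is 1 of the 48 OXPHOS genes on 1 array, given as its RMA signal minus its own mean over the 4 arrays (log2) and coloured by complex, with a bar at the median. The medians are 0.0135 and 0.0171 on the Jun delta mu arrays and -0.0229 and -0.0019 on the Junf/f arrays, and the lowest point, Ndufb2, lies on Junf/f replicate 1.

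Complex I, the NADH dehydrogenase, gave a median difference of 0.035 over 23 genes, of which 18 were above 0. Array means were 13.12 and 13.13 in Jun delta mu hearts, against 13.07 and 13.11 in Junf/f hearts. Without Junf/f replicate 1 the median was 0.014. The 6 core subunits in the list, most of which carry redox centres, had a median of 0.024. The other 17, the accessory subunits with Ndufa4 counted among them, had one of 0.035.

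Ndufb2, an accessory subunit of the membrane arm, had the largest difference of all members. Its signal was 12.82 and 12.90 in Jun delta mu hearts, against 12.54 and 12.76 in Junf/f hearts, with a difference of 0.21 (standard error 0.11). The groups did not overlap, but the value depended on the control, being 0.10 without Junf/f replicate 1 and 0.32 without Junf/f replicate 2. A dimmer probe set of the gene, 1416834_x_at, differed by 0.069, and the least bright one, 1442658_at, by -0.0090. Ndufb7, another accessory subunit, read 13.15 and 13.20 in Jun delta mu hearts, against 13.00 and 13.10 in Junf/f hearts (difference 0.12, standard error 0.092). Its value was 0.073 without Junf/f replicate 1. Ndufa2, an accessory subunit of the matrix arm, read 12.31 and 12.39 in Jun delta mu hearts and 12.23 and 12.26 in Junf/f hearts. All 3 genes were higher on each Jun delta mu array than on each Junf/f array, and every 95% interval included 0.

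Among the core subunits, Ndufs8, which holds iron-sulfur clusters close to the quinone site, was the most shifted. It had 13.55 and 13.53 in Jun delta mu hearts, against 13.43 and 13.50 in Junf/f hearts (difference 0.079). Its 6 probe sets spanned signals of 7.60 to 13.50 and gave differences of -0.015 to 0.12, so no probe set stood out. Ndufs1, the largest subunit and a carrier of iron-sulfur clusters, had 13.19 and 13.12 in Jun delta mu hearts, against 13.12 and 13.20 in Junf/f hearts. Ndufv1, which binds NADH and the flavin, had 13.59 and 13.64, against 13.70 and 13.61. For both, the groups overlapped, and the differences were -0.0061 and -0.041.

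Other complex I genes showed almost no difference. Ndufa4, first assigned to complex I and later placed with complex IV, read 13.74 and 13.70 in Jun delta mu hearts, against 13.73 and 13.71 in Junf/f hearts. Ndufa5, an accessory subunit of the matrix arm, read 13.02 and 13.05, against 13.07 and 13.00. Ndufb8, a membrane arm subunit, read 13.56 and 13.56, against 13.57 and 13.53. Their differences of 0.0013, 0.0023 and 0.0085 had 95% intervals that reached at most 0.22 from 0.

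Complex II, succinate dehydrogenase, is the complex shared with the citrate cycle and the only one with no mitochondrially encoded subunit. Its 4 genes had a median difference of 0.0083, and the sign of that median turned without Junf/f replicate 1 (-0.016) and after cyclic loess (-0.0089). Sdha, the flavin-bearing catalytic subunit, had 13.43 and 13.41 in Jun delta mu hearts, against 13.48 and 13.47 in Junf/f hearts (difference -0.052, standard error 0.085). Both Jun delta mu hearts were below both Junf/f hearts, by 3.54% on the linear scale. Sdhb, the iron-sulfur subunit, had 13.92 and 13.95, against 13.93 and 13.94. Sdhd, a membrane anchor, had 12.77 and 12.65 in Jun delta mu hearts and 12.53 and 12.74 in Junf/f hearts. Its difference of 0.083 was -0.024 without Junf/f replicate 1 and 0.023 without Jun delta mu replicate 1.

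Complex III, the cytochrome bc1 complex, had a median difference of 0.038 over 6 genes, and of 0.015 without Junf/f replicate 1. Uqcrfs1, the Rieske iron-sulfur protein, had 13.68 and 13.69 in Jun delta mu hearts, against 13.59 and 13.67 in Junf/f hearts (difference 0.052). Cyc1, which encodes cytochrome c1, had 13.47 and 13.48, against 13.48 and 13.53 (difference -0.024). The structural subunits Uqcrc1 and Uqcrc2 differed by -0.057 and 0.039, so within this complex the redox and the structural subunits each had a member on either side of 0.

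Among the listed members, complex IV, cytochrome c oxidase, was the complex with the highest share of genes whose groups did not overlap. Both Jun delta mu hearts lay above both Junf/f hearts for 7 of its 10 genes, and both lay below for none, against 17.8% and 15.9% of all genes. No difference between complexes was tested. The median difference was 0.046, and stayed between 0.043 and 0.054 when each array was left out in turn, although cyclic loess brought it to 0.020. Array means were 13.52 and 13.51 in Jun delta mu hearts and 13.46 in each Junf/f heart. All 10 genes were below their own mean on Junf/f replicate 2, and 7 were on Junf/f replicate 1. The size remained small, as all 10 differences lay between -0.060 and 0.15. The share was not particular to the listed complex IV genes. Of 31 measured subunits and related proteins outside the list, 18 (58.1%) had both Jun delta mu hearts above both Junf/f hearts, and 1 had both below. Both lay above for 7 of 10 ATP synthase genes among them, but for only 2 of 6 complex IV genes.

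Of the general subunits, Cox4i1 encodes the main isoform of subunit 4 and Cox5b a zinc-binding subunit. Cox4i1 had 14.21 and 14.24 in Jun delta mu hearts, against 14.19 and 14.20 in Junf/f hearts (difference 0.027). Cox5b had 14.64 and 14.67, against 14.56 and 14.57 (difference 0.087, standard error 0.086). Its 3 next brightest probe sets gave 0.067, 0.13 and 0.077.

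The list holds 3 pairs of a muscle and a widely used isoform, which take the same place in the complex. For subunit 6a, the muscle isoform Cox6a2 read 13.91 and 13.96 in Jun delta mu hearts, against 13.96 and 13.93 in Junf/f hearts, and Cox6a1 read 12.37 and 12.21, against 12.40 and 12.30. By these brightest probe sets both overlapped between genotypes, with differences of -0.015 and -0.060. The other probe set of Cox6a1, 1417418_s_at, read 10.90 and 10.70, against 10.48 and 10.68, a difference of 0.21 without overlap. The sign for Cox6a1 thus depends on the probe set. The other probe set of Cox6a2 overlapped and differed by -0.011. For subunit 7a, the muscle isoform Cox7a1 read 13.51 and 13.46 in Jun delta mu hearts, against 13.35 and 13.37 in Junf/f hearts (difference 0.12, standard error 0.086). Cox7a2 read 14.01 and 13.97, against 13.96 and 13.93 (difference 0.045). For subunit 8, the muscle isoform Cox8b read 13.69 and 13.74 in Jun delta mu hearts, against 13.64 and 13.55 in Junf/f hearts (difference 0.12, standard error 0.090). Cox8a read 10.93 and 10.91, against 10.71 and 10.82 (difference 0.15, standard error 0.091). In subunits 7a and 8 both isoforms lay on the same side. The difference between the isoforms of a pair was not tested.

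**Figure D4:**
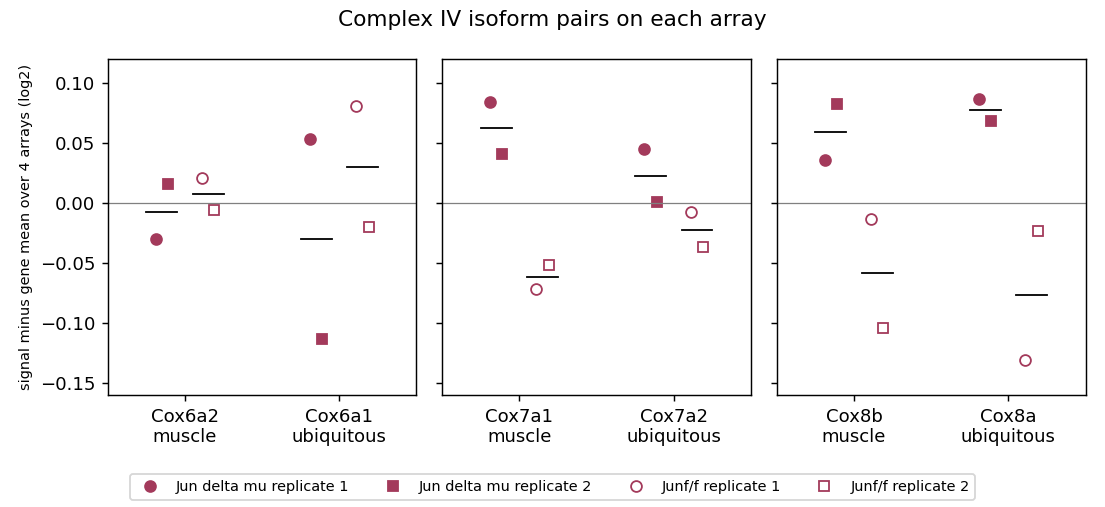
Muscle and widely used (ubiquitous) isoforms of complex IV subunits 6a, 7a and 8 are shown on each array as RMA signal minus the mean of the gene over the 4 arrays (log2), filled for Jun delta mu and open for Junf/f, with bars at group means. By the brightest probe set of each gene, the groups overlap for both isoforms of subunit 6a. They are apart for the isoforms of subunits 7a and 8, with the widest gap between group means at 0.15 for Cox8a.

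The ATP synthase genes fell into 3 with almost no difference and 2 with a small positive one. Atp5a1, the alpha subunit of the catalytic head, had 14.14 and 14.13 in Jun delta mu hearts, against 14.09 and 14.18 in Junf/f hearts, and its difference of 0.000165 was the smallest of all members. Atp5b, the catalytic beta subunit, had 14.45 and 14.48, against 14.45 and 14.46 (difference 0.0072). Atp5c1, the gamma subunit of the rotor, had 14.22 and 14.22, against 14.19 and 14.25. Atp5o, a part of the peripheral stalk that holds the head in place, had 13.98 and 13.97 in Jun delta mu hearts, against 13.91 and 13.86 in Junf/f hearts (difference 0.084, standard error 0.086). Atp5d, of the central stalk, differed by 0.060 with overlapping groups. The median of the 5 was 0.0072, -0.00047 without Junf/f replicate 1, 0.044 without Junf/f replicate 2 and -0.023 after cyclic loess.

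Probe sets of 1 gene mostly told the same story where they were bright and not where they were dim. No member probe set passed the threshold, against 1.53% of all probe sets (0.568% higher and 0.959% lower). Of 76 with a mean signal of 11 or more, 74 had an interval inside 1.3-fold, with differences of -0.074 to 0.21, where 1.04% of all such probe sets passed the threshold. Of the 22 under 11, 10 did, with differences of -0.25 to 0.32 and a median standard error of 0.115. Over all 98, 84 intervals lay inside 1.3-fold and 67 differences were above 0, as in 53.5% and 50.4% of all probe sets.

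The widest disagreements all involved such a dim probe set. For Cox5b, the probe set 1436149_at, with a mean signal of 5.84, read 6.04 and 5.97 in Jun delta mu hearts, against 5.56 and 5.80 in Junf/f hearts. It was the only 1 of the 98 with an unadjusted p under 0.05 (limma; 5.16% of all probe sets), at an adjusted p of no less than 0.896, and 9 of the 98 reached that level in the methods' t-test (5.32% of all probe sets). The dimmest probe set of the same gene, 1448514_at, differed by -0.17. For Ndufb8, 1458404_at differed by -0.25 where the bright probe set differed by 0.0085. For Cox6a1, 1417418_s_at, just under the limit with a mean signal of 10.69, differed by 0.21 where the brighter one differed by -0.060. Without Junf/f replicate 2, 3 member probe sets (3.06%) passed the threshold, against 7.66% of all probe sets in that setting. They were 1436149_at of Cox5b at 0.45, 1458404_at of Ndufb8 at -0.42 and 1433293_at of Sdha at -0.42 (limma, adjusted p = 0.271, 0.273 and 0.305), with all of them under a signal of 7.

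**Figure D5:**
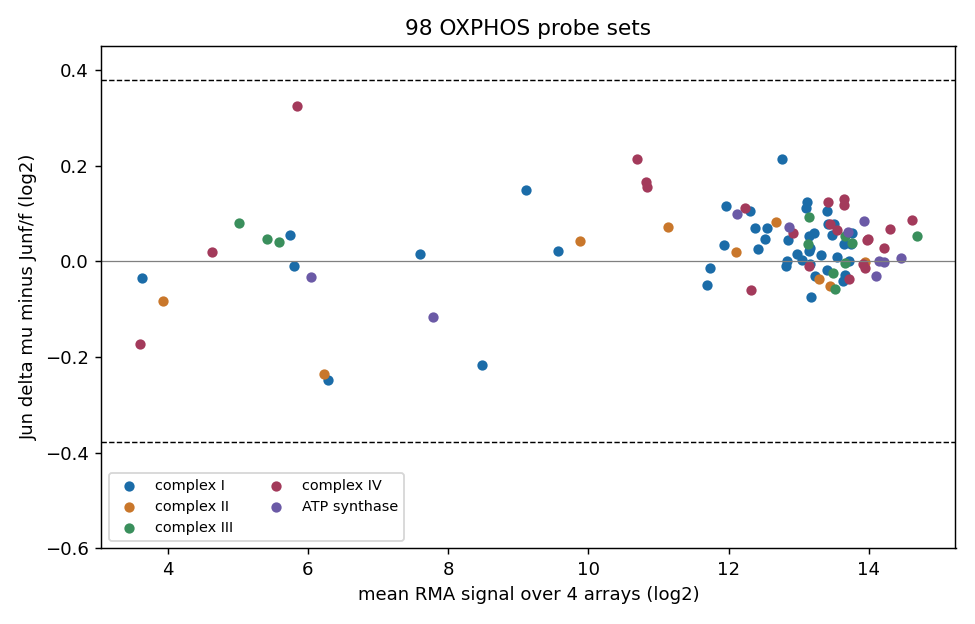
Each of the 98 OXPHOS probe sets is placed by its mean RMA signal over the 4 arrays (log2) and by its difference, Jun delta mu minus Junf/f (log2), coloured by complex, with dashed lines at 1.3-fold. Probe sets with a signal of 11 or more lie between -0.074 and 0.21, and those under 11 spread from -0.25 to 0.32 without crossing a line.

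Subunits of the same complexes outside the 48 did not pass the threshold either, which 1.45% of all genes did. Of 37 further subunits and related proteins looked for, 31 were measured, and their median difference was 0.075, with 25 above 0. The 11 measured complex I genes among them had a median of 0.14, but Junf/f replicate 1 was the lowest array for 10 of the 11, and without it the median was 0.058. Ndufa12, an accessory subunit, had 13.63 and 13.59 in Jun delta mu hearts, against 13.09 and 13.55 in Junf/f hearts. The difference of 0.29 was 0.058 without Junf/f replicate 1, and without Junf/f replicate 2 it was 0.51 and passed the threshold.

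For the 10 further ATP synthase genes the median was 0.066, and the largest difference was that of Atpif1, an inhibitor of ATP hydrolysis by the enzyme. Atpif1 had 11.23 and 11.35 in Jun delta mu hearts, against 11.07 and 10.90 in Junf/f hearts (difference 0.30), and passed the threshold only without Junf/f replicate 1, at 0.38. The 6 further complex IV genes had a median of 0.016, but their median signal was only 7.67, against 13.93 for the listed complex IV genes. The 4 of complex III and cytochrome c had a median difference of 0.086 at a median signal of 13.39. ND5, the only mitochondrially encoded subunit found among 26 mitochondrial names looked for, read 14.61 and 14.63 in Jun delta mu hearts, against 14.50 and 14.59 in Junf/f hearts. Assembly factors insert cofactors and join subunits but are not part of the finished complexes. They had a median of 0.012 over 36 genes, with 0 past the threshold (1.45% of all genes). The largest differences among them were those of Cox17, a copper chaperone for complex IV (12.12 and 12.15 in Jun delta mu hearts, against 11.85 and 11.91 in Junf/f hearts), and Acad9, a complex I assembly factor (8.81 and 8.88, against 9.05 and 9.05).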

How the data were processed

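Total RNA of 4 hearts was labelled and hybridised to 1 array each. The methods name the Affymetrix AGCC software for the raw data, and RMA and oligo, an R package, are credited to the submitters' processing notes, which give no versions. The deposited values are log2 RMA signals per probe set, which the authors had corrected for background and normalized, for 45101 probe sets with 0 missing values and no detection calls.

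The 64 AFFX controls were left out. The platform annotation names 1 gene for 34945 of the other 45037 probe sets, several for 932 and none for 9160. Genotype was fitted per probe set by lmFit and eBayes (limma 3.58.1, R 4.3.3), with two-sided p-values adjusted after Benjamini-Hochberg over all 45037. The number of arrays, 2 per genotype, limits the precision, with 2 residual degrees of freedom and 3.46 from the prior. The procedure was tested on simulated data. Figures were drawn with matplotlib 3.10.9.

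Named were Jun, the 10 largest and 5 smallest differences by brightest probe set, the isoform pairs, a catalytic or signature subunit of each complex, the 3 genes whose probe sets disagree most, and up to 4 genes of each related list. Other names follow a count or a sequence match, or, for Polrmt, go beyond the 4 of its list, and were chosen after their values were seen. Members and lists were chosen with earlier results of these data known. Marker lists covered cardiac, atrial and skeletal muscle, fibroblasts, adipocytes, blood, endothelium and macrophages.

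Alternatives were the methods' t-test, a block for replicate number, array weights, a robust prior with trend, a fit without the dimmest 40% of probe sets, quantile, median and cyclic loess normalization, specific probe sets only, the median over the probe sets of a gene, and a fit without each array, in which a genotype with 1 array borrows the spread of the other.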

Additional observations from a re-analysis of the deposited data

How the results depend on the processing

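Values are differences, Jun delta mu minus Junf/f, on the log2 scale, or counts. The count of member genes past the study's threshold was 0 in each direction under all 14 alternatives. With the replicate number as a block, 254 probe sets were higher and 429 lower, against 256 and 432 without it, 46 intervals inside 1.3-fold became 43, and no other call changed. The deviations of same-numbered arrays from their group means correlated at 0.028 over probe sets. This value alone cannot show whether same-numbered samples share more than a number. The methods' t-test left 89 probe sets higher and 111 lower, and removal of the dimmest 40% left 158 higher. Leaving out 1 array gave 320 to 1466 higher and 419 to 1986 lower, the highest without Junf/f replicate 2, and 0 to 1 higher and 0 to 2 lower among member probe sets.

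Quantile normalization moved the medians of all members to 0.022, complex I to 0.020, complex III to 0.019, complex IV to 0.040 and the further ATP synthase genes to 0.049, and reversed Ndufa4 (-0.015), Atp5c1 (0.010), Atp5b (-0.011) and Ndufb8 (-0.018). Median centring reversed Atp5a1 (-0.00030). Cyclic loess moved the medians of all members to 0.014, complex I to 0.012, complex II to -0.0089, complex III to 0.017, complex IV to 0.020, the ATP synthase to -0.023, further complex III to 0.063 and further ATP synthase genes to 0.048, and reversed Atp5a1 (-0.027), Ndufa4 (-0.022), Ndufa5 (-0.015), Cox4i1 (-0.00040), Atp5b (-0.023) and Ndufb8 (-0.013). These scalings shifted the median of all probe sets by 0.0027, -0.00047 and -0.0024.

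Specific probe sets only left 36 member genes, 23 of them above 0 and 33 with an interval inside 1.3-fold, with medians of 0.013 for complex I, 0.092 for complex IV, 0.059 for further complex IV, 0.039 for further ATP synthase and 0.054 for citrate cycle genes, and reversed Ndufb2 (-0.0090) and Ndufb8 (-0.25). The median over probe sets called 2 genes at an adjusted p under 0.05, Mybpc2 (-2.30) and Myot (-1.44), neither an OXPHOS gene. It moved complex II to 0.022, complex IV to 0.078, further ATP synthase genes to 0.046 and regulators to -0.051, and reversed Atp5a1 (-0.013), Cox6a1 (0.077) and Ndufb8 (-0.12).

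Leaving out 1 array gave 29 to 37 members above 0 and 8 to 47 intervals inside 1.3-fold. Medians ran from 0.011 to 0.041 for all members, 0.014 to 0.045 for complex I, -0.016 to 0.016 for complex II, 0.015 to 0.037 for complex III, 0.043 to 0.054 for complex IV, -0.00047 to 0.044 for the ATP synthase, 0.058 to 0.19 for further complex I, 0.055 to 0.094 for further complex III, -0.010 to 0.054 for further complex IV, 0.045 to 0.075 for further ATP synthase, -0.014 to 0.070 for assembly factors, 0.034 to 0.12 for ND5, 0.0021 to 0.038 for the citrate cycle, -0.0061 to 0.050 for carriers and -0.045 to -0.014 for regulators. Single genes changed sign in Sdhd (-0.024 to 0.19), Atp5a1 (-0.044 to 0.044), Ndufa4 (-0.021 to 0.024), Atp5c1 (-0.028 to 0.024), Sdhb (-0.014 to 0.0096), Ndufa5 (-0.029 to 0.034), Cox6a2 (-0.038 to 0.0083), Cox6a1 (-0.14 to 0.023), Ndufs1 (-0.044 to 0.032), Ndufv1 (-0.088 to 0.0050), Cyc1 (-0.049 to 0.00084), Atp5b (-0.0096 to 0.024) and Ndufb8 (-0.012 to 0.029). The cause of these shifts was not tested.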

Other observations

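Genes that feed or control OXPHOS were looked at beside the subunits. Of 11 measured carriers and porins of the mitochondrial membranes, 1 passed the study's threshold, which 1.45% of all genes did. It was Ucp3, an uncoupling protein of muscle mitochondria, which read 7.39 and 7.19 in Jun delta mu hearts, against 8.28 and 7.62 in Junf/f hearts, with a difference of -0.66 (limma, standard error 0.23, adjusted p = 0.896). The call was lost without Jun delta mu replicate 1 (-0.76), Jun delta mu replicate 2 (-0.56) or Junf/f replicate 1 (-0.33). Ucp3 is also in the gene list that the study drew from these arrays. The median of the 11 was 0.011. Slc25a5, an ATP/ADP carrier, had 13.03 and 12.91 in Jun delta mu hearts, against 12.76 and 12.89 in Junf/f hearts, a difference of 0.15 that did not pass. The 13 measured citrate cycle genes, which supply the NADH and succinate, had a median of 0.021, and 0 of them passed (1.45% of all genes). Idh2, the NADP-linked isocitrate dehydrogenase, had 13.12 and 13.32 in Jun delta mu hearts, against 13.36 and 13.31 in Junf/f hearts.

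Regulators of OXPHOS genes, with a median signal of 9.42, had a median difference of -0.018 over 18 genes, 9 of them above 0. Of the 18, 0 passed the threshold, against 1.45% of all genes. Nrf1, a transcription factor of many nuclear OXPHOS genes, read 6.24 in both Jun delta mu hearts, against 6.44 and 6.43 in Junf/f hearts, a difference of -0.20. Creb1, a cyclic AMP-responsive factor, read 9.15 and 9.10, against 9.47 and 9.27, and Gabpb1, the partner of the ETS factor Gabpa, read 6.87 and 6.56, against 7.18 and 6.77. Without Junf/f replicate 2 Gabpb1 passed the threshold, at -0.46. Esrrb, of the ERR factors, read 8.12 and 8.21 in Jun delta mu hearts, against 7.82 and 8.07 in Junf/f hearts, a difference of 0.22. Polrmt, the mitochondrial RNA polymerase, read 9.502 and 9.53 in Jun delta mu hearts, against 9.32 and 9.35 in Junf/f hearts. Of 37 markers of skeletal and atrial muscle, fibroblasts, fat, blood, endothelium and macrophages, 5 passed the threshold (13.5%, against 1.45% of all genes). Of 8 skeletal muscle genes 1 was higher (Myl1, 1.04) and 2 were lower (Mybpc2, -2.30, and Casq1, -1.52), of 8 fibroblast genes 1 was higher (Postn, 1.15), of 2 blood genes 1 was lower (Alas2, -0.49), and of 7 adipocyte, 4 atrial, 4 endothelial and 4 macrophage genes 0 passed. The call of Postn was lost without Junf/f replicate 2 (0.93), and that of Alas2 without Jun delta mu replicate 2 (-0.22), Junf/f replicate 1 (-0.43) or Junf/f replicate 2 (-0.56).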
